A study of Danio rerio with 2 samples.

Results

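This account describes 10 genes of early blood vessel cells in the RNA recovered with a tagged zebrafish Cpeb1b protein: the Ets transcription factor genes etsrp (also called etv2), fli1a and fli1b, the Sox factor genes sox7 and sox18, the receptor genes kdrl, flt1, flt4 and tie1, and the junction gene cdh5. They were listed by name, with earlier results of these data known. Of the 10 names, 8 had a row among the 33737 genes of the deposited table. The name table pairs kdrl and flt4 with identifiers for which the expression table has no row, so both are not analysed here. The row named FLI1 was taken as fli1a and the row named fli1rs as fli1b, because the RefSeq gene table gives those synonyms. The row named KDR was taken as kdr, a second VEGF receptor 2 gene of zebrafish, and not as kdrl, because the name table gives kdrl an identifier of its own. RefSeq also lists kdr among the synonyms of kdrl, so this assignment is uncertain.

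Wild type embryos were injected with Flag-cpeb1b mRNA and collected at 16 h post-fertilization (hpf), in mid-somitogenesis. Per the labels' protocols, RNA held on anti-FLAG beads was extracted, fragmented and sequenced, an assay called RNA immunoprecipitation sequencing. The series has 1 group of 2 biological replicates, and the authors deposited a single mean RPKM for each gene (a read count scaled to the length of the gene and the size of the library). Every value below is therefore a level in the precipitate, with no spread between replicates and no input or control precipitate to set it against. The bait protein came from injected mRNA. In whole embryos, fewer cells of a type, less RNA per cell and lower recovery in the precipitate cannot be told apart.

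In vertebrate embryos, endothelial cells arise from mesoderm under Ets and Sox transcription factors. In zebrafish, etsrp acts near the top of this programme, and its product switches on vascular genes such as kdrl, tie1 and cdh5. The receptors then read secreted growth factors: kdrl, flt1 and flt4 encode receptors of the VEGF family, and tie1 a receptor that works with the angiopoietin receptor tek. Cpeb proteins recognise sequence elements near the 3′ end of an mRNA and regulate how long its poly(A) tail is and how well it is translated. The question the data address is which of these transcripts were in the Cpeb1b precipitate and at what level.

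Depth was read from the table. The RPKM of a gene with 1 read, multiplied by its length, is the same for each gene of a library, and such steps of 76.0 and 76.3 RPKM × nt accounted for 135 of 171 rows searched (78.9%). The next step found, on 11 further rows, was 152.345 RPKM × nt, which to this precision is the sum of both and thus the value of 1 read in each library. Read as a plain mean of 2 libraries, these steps give 6576775 and 6551363 reads, and RPKM 1 stands for 13.1 reads per kilobase over both. Each interval below is the 95% exact Poisson interval of the reads on 1 kb of gene model. The intervals cover counting error only, are narrower for a longer model, and leave out the unknown variation between replicates. Reads without molecular identifiers are also not independent molecules. Genes at RPKM 1 or more are called detected.

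Of the Ets members, etsrp had the highest level and fli1b the lowest, although the intervals of etsrp and fli1a overlapped. The etsrp transcript (ENSDARG00000053868) had 4.56 RPKM, or 59.9 reads per kilobase with an interval of 45.7 to 77.1. That level lay above 85.6% of all genes in the table. The fli1a row, FLI1 (ENSDARG00000054632), had 2.57 RPKM, or 33.7 reads per kilobase with an interval of 23.3 to 47.2. Fli1 proteins are Ets activators of endothelial genes, and the fli1a promoter region is widely used to mark zebrafish vessels. Its paralogue fli1b, the row fli1rs (ENSDARG00000040080), was under the detection threshold at 0.811 RPKM, or 10.6 reads per kilobase with an interval of 5.24 to 19.2. The fli1a level was 3.17 times the fli1b level, and their counting intervals did not overlap.

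In the RefSeq gene table (assembly GRCz12tu, used for gene order only) etsrp and fli1b are neighbours, and fli1a is the neighbour of ets1, whose product is another Ets activator. RefSeq gives ets1b as a synonym of etsrp. ETS1 had 4.83 RPKM, 1.06 times the etsrp level, with overlapping intervals. In both pairs the fli1 gene was the lower. The level of etsrp was 5.63 times that of fli1b and the level of ETS1 1.88 times that of FLI1. In neither pair did the intervals overlap. The span of caspa, a caspase gene, overlaps etsrp and fli1b in that assembly. It had 0.198 RPKM, a level under that of either, and was looked up after the values were seen.

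The Sox factor genes stood close together below fli1a, although the interval of each overlapped that of fli1a. The SOX7 row (ENSDARG00000030125) had 2.14 RPKM, or 28.1 reads per kilobase with an interval of 18.7 to 40.5. The sox18 row (ENSDARG00000058598) had 1.54 RPKM, or 20.3 reads per kilobase with an interval of 12.4 to 31.2. Both encode SoxF transcription factors, which act in overlapping fashion in zebrafish arteries and veins. Their ratio was 1.38 and their intervals for 1 kb overlapped, and whether their order is resolved was not tested. RefSeq places a long non-coding RNA over the span of sox18. It was not matched to a row here, so reads of both may be mixed.

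Of the receptor genes, flt1 was well above tie1. The flt1 transcript (ENSDARG00000019371) had 3.46 RPKM, or 45.5 reads per kilobase with an interval of 33.2 to 60.8, above 82.2% of all genes. Flt1 binds VEGF tightly and, in its soluble form, holds it away from the other receptors. The table does not separate the soluble from the membrane form. The TIE1 row (ENSDARG00000004105) had 0.578 RPKM, or 7.59 reads per kilobase with an interval of 3.19 to 15.2, the lowest of the measured members. The flt1 level was 5.99 times the tie1 level, and their intervals did not overlap. RefSeq places an antisense RNA, lnc.tie1, over tie1; it was not matched to a row here, and whether counting used strand is not given here, so reads of the antisense RNA and of tie1 cannot be told apart.

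The junction gene cdh5 (ENSDARG00000075549) encodes VE-cadherin, the adhesion protein of endothelial junctions. It had 1.01 RPKM, or 13.2 reads per kilobase with an interval of 7.07 to 22.5. The level stood at the detection threshold, so that cdh5 counts as detected by a margin far below its counting error. RefSeq places a long non-coding RNA over the span of cdh5. It too was not matched to a row, so reads of both may be mixed.

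**Figure D1:**
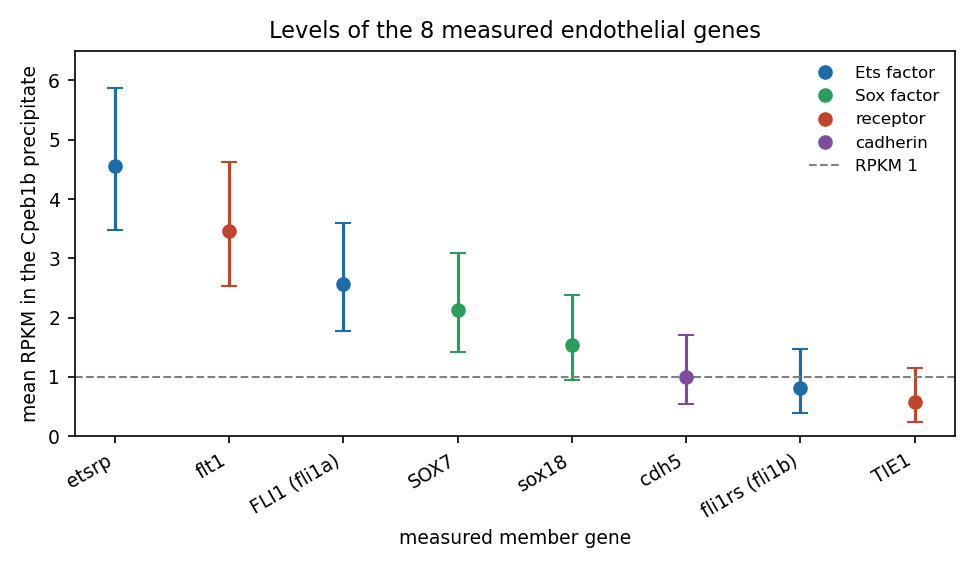
Mean RPKM in the Cpeb1b precipitate (vertical axis) of the 8 measured genes, ordered by level and coloured by class; bars are the 95% exact Poisson interval for 1 kb of gene model and the dashed line is RPKM 1. The levels fall from 4.56 RPKM for etsrp to 0.578 RPKM for TIE1, and the bars of each pair of neighbours overlap.

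From highest to lowest the order was etsrp, flt1, fli1a, sox7, sox18, cdh5, fli1b and tie1. The etsrp level was 7.89 times that of tie1. Overlap of 2 intervals for 1 kb is not a test of a difference, so whether any single step of this order is resolved was not tested. Intervals overlapped in all 7 pairs of neighbours in this order, whereas 13 of the 28 possible pairs had intervals apart. Those pairs set etsrp above sox7, sox18, cdh5, fli1b and tie1, and flt1 above sox18, cdh5, fli1b and tie1. They also set fli1a above cdh5, fli1b and tie1, and sox7 above tie1.

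Read against the whole table, 6 of the 8 measured genes (75.0%) were detected, where 38.6% of all rows, 46.8% of rows with a gene name and 53.4% of rows named as a protein-coding RefSeq gene were. The 6 detected genes lay between RPKM 1 and 5. For 1 kb of gene model, the intervals of sox18 (0.946 to 2.38 RPKM) and cdh5 (0.538 to 1.71 RPKM) included RPKM 1. So did those of fli1b (0.399 to 1.46 RPKM) and tie1 (0.243 to 1.16 RPKM), so for a 1 kb model these calls lie within counting error. Intervals are narrower for a longer model, and whether the calls are resolved at each gene's own length was not tested. The median of the 8 was 1.84 RPKM, beside 0.507 RPKM over all rows, 0.854 over named rows and 1.16 over protein-coding names. All 8 lay above the median of all rows, and 5 above that of the protein-coding names. Among detected rows, whose median was 3.14 RPKM, only etsrp and flt1 were above the median. No member was listed at 0, as 7930 of all 33737 rows and 781 of the 14223 rows with protein-coding names were.

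**Figure D2:**
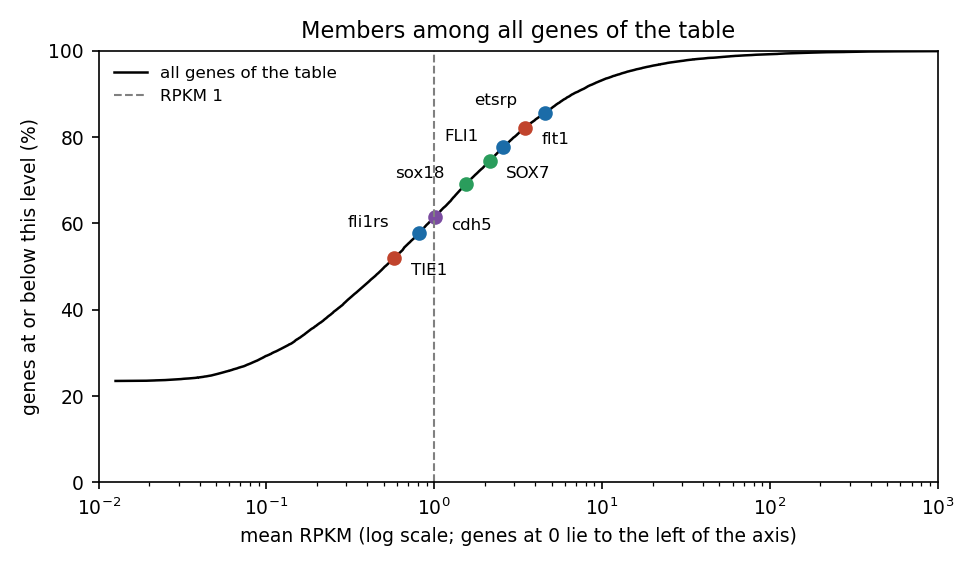
Share of all 33737 genes at or below a given mean RPKM (black line, horizontal axis on a log scale), with the 8 measured genes as points in the colours of their class and a dashed line at RPKM 1. The points run from 52.0% for TIE1 to 85.6% for etsrp.

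Each gene was then placed in its protein family, with the families and the leading gene of each picked after the table had been opened. Of 26 rows of the Ets family 16 were detected (61.5%), beside 38.6% of all rows and 53.4% of protein-coding names. The family median was 2.39 RPKM. Here etsrp was in place 6, FLI1 in place 12 and fli1rs in place 17. The family was led by the higher row named ERF, a repressor, at 8.94 RPKM. ERG, an Ets gene that acts with fli1 in endothelium, had 0.436 RPKM, and the FLI1 level was 5.89 times higher. Of 23 Sox rows 17 were detected (73.9%), with a median of 3.29 RPKM. SOX7 and sox18 were in places 15 and 16 and thus below that median, and the neural gene sox19a was highest at 30.3 RPKM.

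Among 43 receptor tyrosine kinase rows outside the Eph family, 23 were detected (53.5%), near the 53.4% of protein-coding names. The median was 1.14 RPKM. The flt1 row was in place 10, KDR in place 17, TIE1 in place 26 and tek in place 38. FGFR2, a fibroblast growth factor receptor, led at 19.9 RPKM, 5.75 times the flt1 level. Of 19 numbered cadherin rows 8 were detected (42.1%), under that share, with a median of 0.609 RPKM. The cdh5 row was in place 8. Of these rows CDH2, the N-cadherin gene of neural and mesodermal tissue, was highest at 20.7 RPKM, 20.5 times the cdh5 level. No row was matched to cdh1, so it is not among them.

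**Figure D3:**
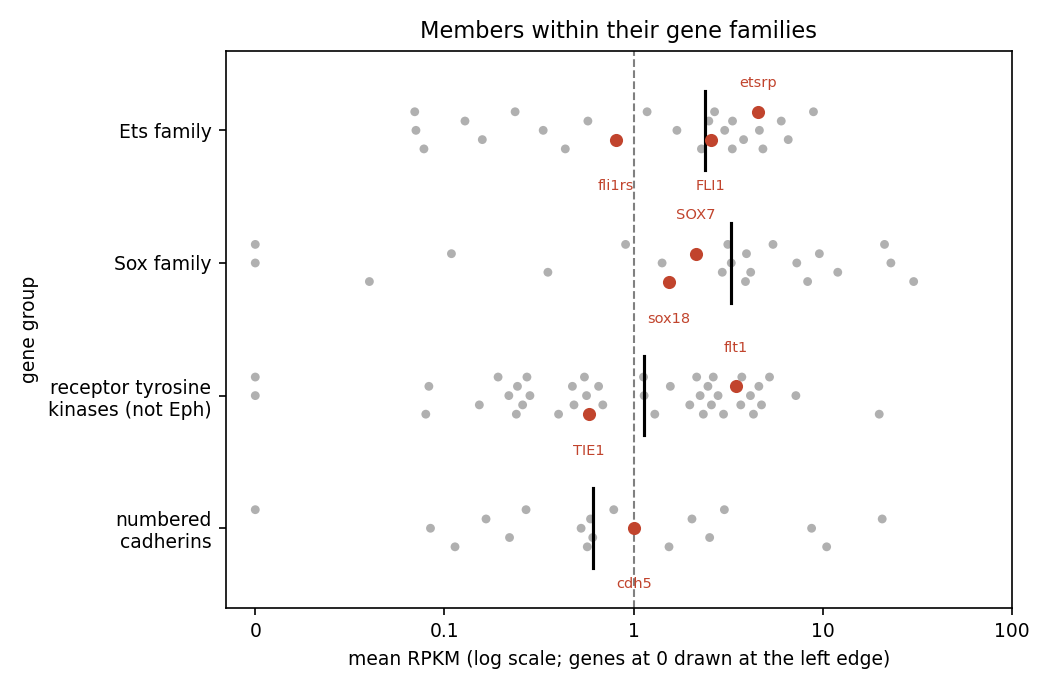
Mean RPKM (horizontal axis, log scale, genes at 0 at the left edge) of every named row in 4 gene families; red points are the measured members, grey points the other rows, black bars the family medians and the dashed line RPKM 1. The etsrp, FLI1, flt1 and cdh5 points lie to the right of their family's median, and fli1rs, SOX7, sox18 and TIE1 to the left.

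The receptors of the members' pathways and their ligands were taken next. Of 16 measured rows of VEGF and Tie ligands and other receptors 6 were detected (37.5%), close to the 38.6% of all rows and under the 53.4% of protein-coding names, and the median was 0.578 RPKM. The split by role was made after the values were seen. Of 10 ligand rows only PGF, encoding placental growth factor, was detected, at 1.40 RPKM, and flt1 stood 2.47 times higher. The VEGFA row had 0.450 RPKM, vegfba 0.309, vegfbb 0.786, VEGFC 0.307 and VEGFD 0.706. For 1 kb, the intervals of PGF (0.836 to 2.20 RPKM), vegfbb (0.382 to 1.43) and VEGFD (0.328 to 1.33) included RPKM 1. Those of the other ligand rows lay below it. The VEGFA and PGF rows were matched without a final a or b, and which paralogue each row stands for was not assigned. VEGFA protein is the main ligand of the receptors from kdrl and flt1, VEGFC of that from flt4. The angiopoietin rows, which encode the ligands of tek, were at 0.246 RPKM for ANGPT1, 0.0525 for ANGPT2, 0.298 for angpt2b and 0.247 for ANGPT4.

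Of 6 receptor and co-receptor rows 5 were detected, where 38.6% of all rows and 53.4% of protein-coding names were. For 1 kb, the intervals of nrp1b (0.916 to 2.33 RPKM), the lower NRP2 row (0.643 to 1.89) and plxnd1 (0.547 to 1.73) included RPKM 1. Those of KDR and the higher NRP2 row lay above it, and that of tek below. KDR (ENSDARG00000017321) had 2.25 RPKM, and flt1 stood 1.54 times higher with overlapping intervals. RefSeq places another protein-coding gene over the span of kdr. That gene was not matched to a row here, so reads of both may be mixed. The neuropilin rows, co-receptors of VEGF and semaphorins, had 12.7 and 1.15 RPKM for the rows named NRP2 and 1.51 RPKM for nrp1b. No row was matched to nrp1a. The 12.7 RPKM of NRP2 was the highest of this list; neuropilins also act in neurons. The semaphorin receptor gene plxnd1 had 1.02 RPKM. The angiopoietin receptor tek had 0.192 RPKM, or 2.52 reads per kilobase with an interval of 0.425 to 8.04, and TIE1 was 3.01 times higher with overlapping intervals.

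Of the other regulators of vessel precursors 18 of 21 measured rows were detected (85.7%), beside 38.6% of all rows and 53.4% of protein-coding names, and their median was 2.68 RPKM. The highest were the venous nuclear receptor gene NR2F2 at 12.0 RPKM, the LIM-domain cofactor LDB1 at 7.59 RPKM, the Ets gene ELF2 at 6.04 RPKM, GATA2 at 5.72 RPKM and ETS1 at 4.83 RPKM. These genes also act outside vessels. LMO2 and TAL1, partners in a complex that specifies blood and vessel precursors, had 3.12 and 1.07 RPKM. The etsrp level was 1.46 times that of LMO2, with overlapping intervals, and 4.28 times that of TAL1, with intervals apart. The Ets gene ELK3 had 1.70 RPKM and gata2b, a regulator of blood stem cell precursors in zebrafish, 0.156 RPKM. The genes npas4l, which acts before etsrp in zebrafish, and sox17 are not analysed here.

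Of 27 junction and surface rows of endothelium 13 were detected (48.1%), and their median was 0.879 RPKM. That share lay above the 38.6% of all rows, near the 46.8% of all named rows and under the 53.4% of protein-coding names. The highest were a row named CLDN5 at 58.0 RPKM, the apelin receptor aplnrb at 12.8 RPKM, AMOTL2 at 8.53 RPKM, JAM3 at 6.67 RPKM and amotl2b at 3.70 RPKM; these genes are not restricted to vessels. The other row named CLDN5 had 0.879 RPKM, and which of the rows is cldn5a or cldn5b was not assigned. The angioblast receptor genes aplnrb and aplnra differed, with aplnra at 0.0698 RPKM. Of 17 artery and vein rows 11 passed RPKM 1 (64.7%), beside 38.6% of all rows and 53.4% of protein-coding names. With 1 row per symbol it was 9 of 14. The median of the 17 rows was 2.32 RPKM. The highest were a row named EFNB2 at 15.2, NR2F2 at 12.0, NOTCH3 at 8.32, NOTCH1 at 5.84 and dlc at 4.42 RPKM. All of these genes also act outside vessels. The other row named EFNB2 had 2.32 RPKM, and which paralogue each of the EFNB2 rows stands for was not assigned. The arterial Notch ligand gene dll4 had 0.769 RPKM, and the venous and lymphatic scavenger receptor genes stab1 and stab2 had 0.292 and 0.396 RPKM. The rows of dll4, stab1, stab2 and aplnra and the lower CLDN5 and EFNB2 rows were named after their values were seen. Over the 4 lists together, 46 of 79 rows were detected (58.2%), near the 53.4% of protein-coding names, with a median of 1.34 RPKM beside 1.16 RPKM. Not every list row matched without a final a or b is itself among the protein-coding names.

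**Figure D4:**
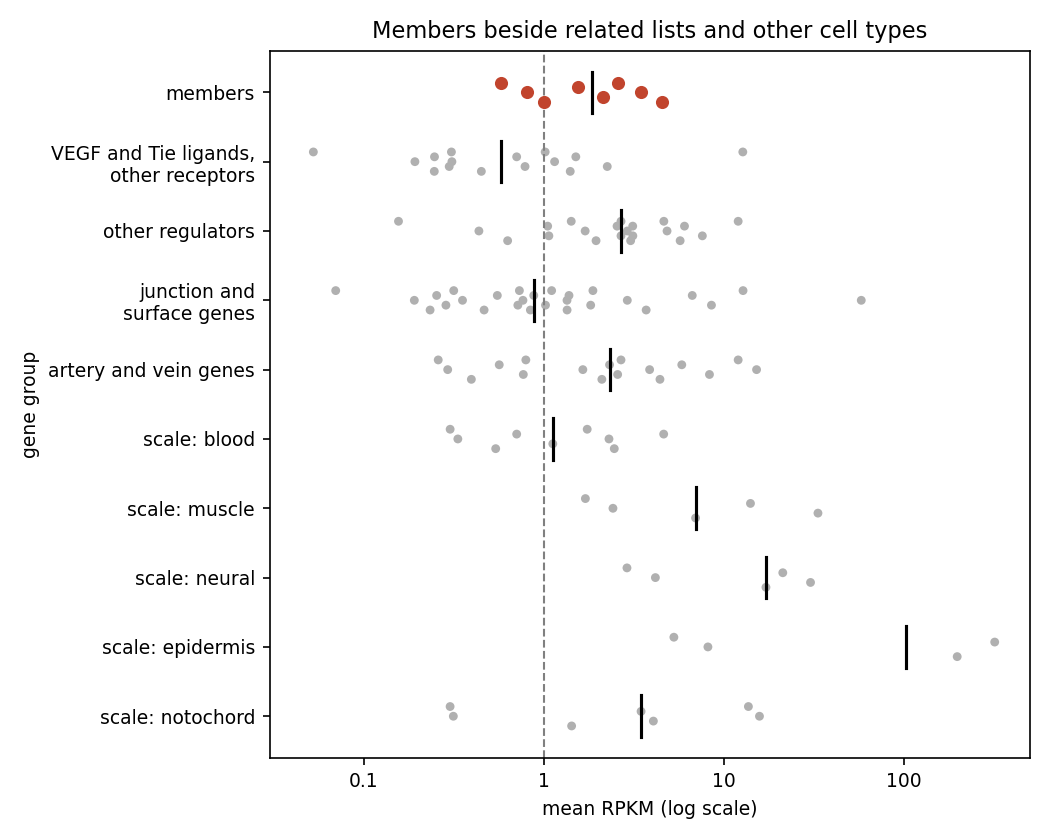
Mean RPKM (horizontal axis, log scale) of the 8 measured members (red), the 4 related lists and 5 short lists for other cell types of the embryo (grey); black bars are medians and the dashed line is RPKM 1. The member median of 1.84 RPKM lies between those of the VEGF and Tie list (0.578) and of the other regulators (2.68).

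For scale, short lists for other cell types of the whole embryo gave medians on both sides of the members. In the blood list 5 of 9 rows were detected (55.6%), beside 38.6% of all rows and 53.4% of protein-coding names. The blood median was 1.12 RPKM. Highest were the myeloid factor SPI1 at 4.63, the red cell carbonic anhydrase cahz at 2.46 and the heme enzyme UROD at 2.30 RPKM. Notochord rows had a median of 3.47 RPKM with 5 of 7 detected (71.4%). Some of these rows share a symbol, and which paralogue each stands for was not assigned. With 1 row per symbol it was 4 of 5, with the same median. The highest were rows of COL2A1 at 15.8 and 4.06 RPKM and noto at 13.7 RPKM. The muscle median was 6.96 RPKM (10.5 RPKM with 1 row per symbol) over 5 rows that ran from 1.70 to 33.3 RPKM. The highest of these were actc1a at 33.3, the higher row named ACTA1 at 14.1 and MYOD1 at 6.96 RPKM. The neural median was 17.1 RPKM over 5 rows that ran from 2.90 to 30.3 RPKM. Its highest rows were sox19a at 30.3, SOX3 at 21.2 and ELAVL3 at 17.1 RPKM. The epidermal list had only 4 rows, from 5.28 RPKM to krt4 at 319 RPKM. Its median of 103 RPKM fell in the gap between krt5 at 198 and epcam at 8.15 RPKM. Neither the number of cells of each type nor the recovery of each transcript in the precipitate was measured. Their part in these levels was not tested.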

How the data were processed

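The authors deposited 1 table without a header that gives, for 33737 Ensembl genes, an RPKM averaged over 2 replicates (unit and averaging from the name of the file). Per the submitters' processing notes the genome build was Zv9, and the tools named were Bowtie, TopHat2 2.1.1, bedtools 2.16.2, MACS2 2.0.10, Trimmomatic 0.36, cutadapt 1.13 and FastQC. What each tool did, the annotation release, gene lengths, strand and multiple alignments are not given in the sources used, so reads of close paralogues may be mixed.

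A name table gave symbols for 21939 genes (65.0%). Names were matched directly, then by RefSeq synonym (GRCz12tu), then without a final a or b. The set of protein-coding names does not hold every row matched in the last way, so lists and set were not picked by the same rule. Depth was estimated from values of 0.4 to 2 RPKM shared by at least 3 rows, with a tolerance of 0.002 in the length, and the search was tested on simulated data. Computation used Python 3.11.15 with pandas 2.3.3 and scipy 1.17.1. No test between groups or genes was run. The members and lists were chosen with earlier results of these data known, and the families after the file had been opened. Genes named are all members, all measured VEGF and Tie ligands and receptors, and the 5 highest rows of each other related list. The rule also takes regulators acting before or beside etsrp and the 3 highest rows of each other cell type. Outside this rule, caspa, aplnra, the lower CLDN5 and EFNB2 rows, dll4, stab1, stab2 and the family leaders ERF, FGFR2 and CDH2 were named after their values were seen. Alternatives changed the threshold, the name matching and the set of ranked genes. Reads per gene could not be estimated, because no gene length was used, and are replaced by reads per kilobase.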

Additional observations from a re-analysis of the deposited data

How the results depend on the processing

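At a threshold of RPKM 0.1 all 8 members were detected, as were 70.7% of all rows and 89.1% of protein-coding names. At RPKM 5 it was 0, beside 13.3% and 18.5%, against 6 at RPKM 1. Exact names alone, which leave out FLI1 and fli1rs, gave 5 of 6, and KDR counted as kdrl gave 7 of 9. The members' median stayed between 1.54 RPKM (without etsrp) and 2.35 RPKM (detected rows only), against 1.84. The alternatives without fli1rs, without etsrp and with KDR as kdrl were chosen after seeing the data. The median share of genes below a member was 71.8% among all rows, 65.6% among named rows, 60.2% among protein-coding names, and 37.9% among detected rows for the 6 detected members. In the 4 related lists together, 77 rows were detected at RPKM 0.1 and 12 at RPKM 5, against 46. No paired analysis was possible because only 1 group exists and its replicates are given as a mean, and none could be left out. The planned estimate of reads from coding lengths was not run. Near RPKM 1 a 1 kb gene model has 13.1 reads and a counting error of 27.6%, which limits cdh5, fli1b and tie1 most. The error is smaller for a longer model, and gene lengths were not used.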
